A study of Mus musculus with 12 samples.

Results

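The genes described here are 9 that act on stored triglyceride, Pnpla2, Lipe, Mgll, Abhd5, G0s2, Lpl, Plin3, Plin4 and Dgat1, in the hind limb muscle of mice lacking αB-crystallin and HspB2. They were taken by gene symbol from 22923 symbols, and each was found on a single row. The study profiled RNA from proximal hind limb skeletal muscle of 12 male mice on the FVB/N background (FVB in the labels) at 22 weeks of age, with 3 mice in each of 4 groups. These were wild-type (WT) mice given normal chow (chow-fed, titles Flox-control) or a high fat diet (fat-fed, Flox-highfat), and αB-crystallin/HspB2 knockout (KO) mice given the same normal chow (KO-control) or high fat diet (KO-highfat). The knockout removes both genes from every tissue, so it is not a muscle-specific model. Each mouse gave a separate library, and the values are in FPKM, fragments per kilobase of transcript and unit of library size, so levels can be set side by side between genes.

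Triglyceride is held in lipid droplets, and its breakdown runs through a chain of lipases. Adipose triglyceride lipase (Pnpla2) removes the first fatty acid, hormone-sensitive lipase (Lipe) the next and monoacylglycerol lipase (Mgll) the last, while the co-activator Abhd5 (CGI-58) turns Pnpla2 protein on and G0s2 protein holds it back. Lipoprotein lipase (Lpl) works outside the cell, on circulating triglyceride, Dgat1 makes the final step of triglyceride synthesis, and the perilipins Plin3 and Plin4 coat small droplets. Skeletal muscle runs this system to burn fat, and adipocytes between or around the fibres run it to store and release fat.

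The genotype label of 6 of the 12 samples conflicts with the title, and the deleted genes followed the titles. Cryab, which encodes αB-crystallin, lay between 412 and 837 FPKM in the libraries titled Flox and between 0.845 and 1.75 FPKM in those titled KO, and Hspb2 between 81.5 and 103 FPKM and between 0.353 and 1.92 FPKM. Of 11 skeletal muscle markers, 10 reached 1 FPKM in at least one library, while Myh4 was listed at 0 throughout. Acta1 was listed at 0 in chow-fed WT replicate 1 and fat-fed KO replicate 2, against 22322 to 35165 FPKM in the other libraries. The same 2 libraries held 25896 and 17661 FPKM of the muscle marker Ckm, against 13276 to 21895 in the others. Whether a listed 0 is absence or a missing value was not tested. The sum of 10 adipocyte markers ran from 609 to 2194 FPKM in chow-fed WT mice, 595 to 1747 in fat-fed WT mice, 2099 to 4559 in chow-fed KO mice and 1823 to 2300 in fat-fed KO mice, and Fabp4, which endothelial cells also express, made up 65.7% of it. The markers did not all move together with diet in KO mice. Lep averaged 23.2 FPKM with chow and 75.2 with the high fat diet, and Cidec 106 and 110. Each of the remaining markers had a lower mean on high fat diet, as Cfd did (1034 and 90.2 FPKM). The sum of 10 lymphoid markers was 90.8, 107 and 104 FPKM in replicate 2 of the chow-fed WT and replicates 1 and 3 of the chow-fed KO mice, and at most 7.28 FPKM in the other 9 libraries. Of the muscle markers, Mylpf and Tnnt3 were lowest in these 3 libraries. In the same order Mylpf was 9997, 9308 and 8006 FPKM, against 10825 to 14344 in the others. Tnnt3 was 11990, 10782 and 9588 FPKM, against 12490 to 16793. Tnni2, Atp2a1 and Pvalb were lowest there too, and Ckm in the KO libraries among them, while Myh1, Myh2 and Mb did not follow. Other cell markers differed by genotype too. The sum of 6 macrophage markers, of which Lyz2 made up 74.2%, was 98.5 to 209 FPKM in chow-fed WT, 110 to 145 in fat-fed WT, 158 to 290 in chow-fed KO and 163 to 335 in fat-fed KO mice, so the fat-fed genotypes did not overlap in this sum. Lyz2 itself overlapped on both diets. On normal chow Csf1r, Mrc1 and Cd163 were higher in KO mice without overlap, while Emr1 and Cd68 overlapped. The sum of 6 brown adipocyte markers was 1280 to 1620, 1500 to 2006, 1041 to 1280 and 1049 to 1137 FPKM in the same order. Its lower level in KO mice is that of Cox8b, which striated muscle also expresses and which made up 98.3% of it. Ucp1 and Cidea did not follow the sum. In the 3 libraries rich in lymphoid markers, in the order above, Ucp1 was 16.2, 7.50 and 6.67 and Cidea 29.8, 49.8 and 45.4 FPKM. In the other 9 libraries they were at most 0.746 and 12.5 FPKM. Elovl3 and Dio2 stayed under 1 FPKM throughout, and Ppargc1a ran from 3.36 to 9.24 FPKM. The sum of 5 endothelial markers was 139 to 141 in chow-fed WT mice, above the 127 to 129 FPKM of chow-fed KO mice, and overlapped between genotypes on high fat diet (125 to 136 and 123 to 130). The part of these cells in the genotype differences below was not tested. Read totals were not used here, but the steps between the lowest values put the depth of the libraries within 1 to 1.36 times that of the first. The highest, 1.36 and 1.31, were replicates 1 and 3 of the chow-fed KO mice, and the rest were at most 1.2. These are estimates from scaled values and not counts of reads.

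All 9 genes were above 1 FPKM in all 12 libraries and passed the filter on low values. Lpl was the most abundant, with a mean of 235 FPKM over the 12 mice (range 171 to 319), followed by Pnpla2 at 186 (133 to 273), and the ranges of the pair overlapped. Plin4 at 66.4 (39.6 to 97.0), G0s2 at 57.4 (36.7 to 82.5), Mgll at 55.3 (32.3 to 74.2) and Lipe at 54.3 FPKM (16.4 to 116) came next and could not be ordered within their spread. Abhd5 at 19.9 (16.9 to 24.2), Plin3 at 17.8 (14.0 to 22.7) and Dgat1 at 15.9 FPKM (9.0 to 27.7) were the lowest and likewise overlapped. Lipe varied most from mouse to mouse, by 7.11 times between its lowest and highest library, and Abhd5 least, by 1.43 times.

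**Figure D1:**
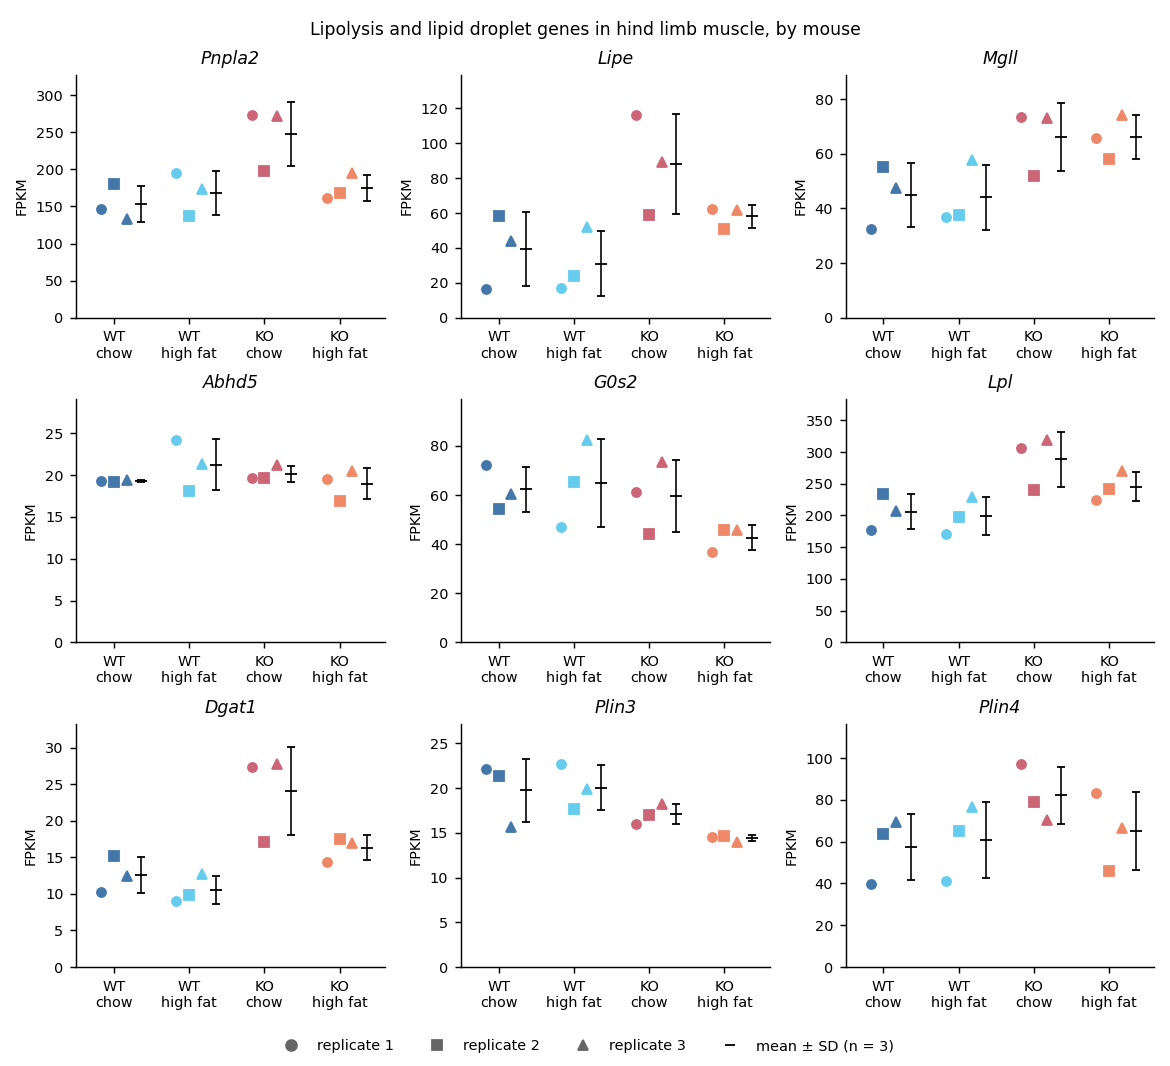
FPKM of the 9 genes (y axis, from 0) in each of the 12 mice, by group (x axis), with each group's mean ± SD beside its 3 points. Pnpla2, Lipe, Mgll, Lpl, Plin4 and Dgat1 have their lowest points among WT mice and their highest among KO mice, Plin3 is lowest in fat-fed KO mice, and Abhd5 is nearly level.

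The promoters of the 3 intracellular lipases, whose mean levels were higher in KO mice, and of Plin3, whose mean was lower, are shown as the 250 bases before the RefSeq start (GRCm38.p6), 5′ to 3′ on the gene's strand. Capitals mark matches on either strand to the GC box GGGCGG, the TATA box TATAAA, the CCAAT box CCAAT, the E-box CACGTG, the FoxO motif GTAAACA or the PPAR/RXR direct repeat (DR1). Lipe has RefSeq entries at an upstream start, chr7:25395988-25396237, and at a start downstream of it, chr7:25390113-25390362. Mgll is shown at chr6:88724162-88724411, Pnpla2 at chr7:141454938-141455187 and Plin3 at chr17:56290512-56290761.
Lipe, upstream start: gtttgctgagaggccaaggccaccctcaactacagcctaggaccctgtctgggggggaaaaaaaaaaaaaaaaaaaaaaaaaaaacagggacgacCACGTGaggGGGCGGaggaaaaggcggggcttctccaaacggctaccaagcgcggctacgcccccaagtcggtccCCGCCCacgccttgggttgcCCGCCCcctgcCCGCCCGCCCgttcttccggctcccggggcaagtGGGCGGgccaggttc
Lipe, downstream start: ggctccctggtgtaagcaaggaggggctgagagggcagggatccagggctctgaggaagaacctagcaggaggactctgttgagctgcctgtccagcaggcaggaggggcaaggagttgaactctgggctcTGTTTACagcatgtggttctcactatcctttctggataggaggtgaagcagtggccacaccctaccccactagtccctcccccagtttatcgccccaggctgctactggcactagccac
Mgll: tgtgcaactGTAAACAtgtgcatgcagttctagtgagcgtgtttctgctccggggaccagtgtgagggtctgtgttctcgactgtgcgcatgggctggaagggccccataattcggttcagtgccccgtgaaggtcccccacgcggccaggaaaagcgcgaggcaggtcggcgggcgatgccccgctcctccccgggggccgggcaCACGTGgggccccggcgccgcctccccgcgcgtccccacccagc
Pnpla2: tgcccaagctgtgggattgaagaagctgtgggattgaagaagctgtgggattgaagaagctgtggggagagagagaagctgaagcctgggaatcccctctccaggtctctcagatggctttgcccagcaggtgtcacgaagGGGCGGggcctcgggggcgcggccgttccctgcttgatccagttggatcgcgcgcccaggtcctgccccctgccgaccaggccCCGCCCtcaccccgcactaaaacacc
Plin3: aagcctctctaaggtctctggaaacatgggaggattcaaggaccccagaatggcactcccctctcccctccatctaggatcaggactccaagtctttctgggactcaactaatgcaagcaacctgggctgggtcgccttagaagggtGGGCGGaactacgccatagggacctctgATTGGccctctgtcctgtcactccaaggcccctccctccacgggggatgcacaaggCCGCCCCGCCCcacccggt
The E-box stood in the promoters of Lipe (upstream start) and Mgll, and 6.02% of all 32851 RefSeq promoters of this length held it. The FoxO motif stood at the downstream start of Lipe and in Mgll, against 3.17% of all promoters. GC boxes, held by 32.7% of all promoters, stood in 6 of the 9 entries, the upstream Lipe, Pnpla2 and Plin3 windows, with overlapping matches in Lipe and Plin3, and those of Abhd5, G0s2 and a second Mgll start (chr6:88724454-88724703), which are not printed. The Plin3 and Plin4 entries held a CCAAT box (33.8%). Of the 9 genes 7 had promoter entries, and Lpl and Dgat1 are named only. None of the 9 entries held the TATA box (12.4% of all promoters) or the PPAR/RXR direct repeat (0.338%).

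Pnpla2 (chr7:141455198-141460743, plus strand, GRCm38) encodes the lipase that starts triglyceride breakdown. Its level was 146, 181 and 133 FPKM in chow-fed WT mice, 196, 137 and 173 in fat-fed WT mice, 273, 198 and 272 in chow-fed KO mice, and 161, 168 and 195 FPKM in fat-fed KO mice. Each chow-fed KO mouse stood above every mouse of the other groups, the closest pair being 198 and 196, and the remaining 3 groups overlapped. Between genotypes on normal chow the difference in log2(FPKM + 1) was 0.68 (SE 0.17, 95% interval 0.30 to 1.06, adjusted p = 0.263 in limma over all 11945 genes tested). On high fat diet it was 0.06 (interval -0.32 to 0.44). Fat-fed KO mice lay below chow-fed KO mice without overlap, a log2 difference of -0.49 (SE 0.17, adjusted p = 0.431), whereas the diet difference in WT mice was 0.13 (SE 0.17). The difference between the 2 diet effects was -0.62 (SE 0.24, adjusted p = 0.735), so it did not pass the adjusted threshold of 0.05.

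Lipe (chr7:25379527-25398710, minus strand) encodes hormone-sensitive lipase, which is most abundant in adipocytes. Its level was 16.4, 58.1 and 44.2 FPKM in chow-fed WT mice, 16.9, 24 and 52.2 in fat-fed WT mice, 116, 59.1 and 89.5 in chow-fed KO mice, and 62.1, 50.7 and 61.9 FPKM in fat-fed KO mice. On normal chow the lowest KO mouse stood just above the highest WT mouse, and on high fat diet the groups overlapped. The log2 difference between genotypes was 1.26 on normal chow (SE 0.47, adjusted p = 0.281) and 1.04 on high fat diet (SE 0.47, adjusted p = 0.305). Averaged over diets, 35.3 ± 18.5 FPKM in WT mice stood against 73.2 ± 24.8 in KO mice (SD, n = 6 each), a log2 difference of 1.15 (SE 0.33, interval 0.42 to 1.88, limma adjusted p = 0.0794). With 1 library left out the chow difference ran from 0.74, without chow-fed WT replicate 1, to 1.62, without chow-fed WT replicate 2.

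Mgll (chr6:88724412-88828360, plus strand) encodes the enzyme that releases the last fatty acid. Its level was 32.3, 55.1 and 47.4 FPKM in chow-fed WT mice, 36.9, 37.6 and 57.8 in fat-fed WT mice, 73.5, 51.9 and 73.2 in chow-fed KO mice, and 65.8, 58.2 and 74.2 FPKM in fat-fed KO mice. All 3 fat-fed KO mice were above all 3 WT mice on that diet, the closest pair being 58.2 and 57.8. The log2 difference between genotypes was 0.56 with chow and 0.60 with the high fat diet (SE 0.23 each), and 0.58 averaged over diets (SE 0.16, interval 0.23 to 0.93, limma adjusted p = 0.0734). With 1 library left out the chow difference ran from 0.35 to 0.73, the lowest without chow-fed WT replicate 1. Diet left Mgll with a log2 difference of -0.02 in WT and 0.01 in KO mice (SE 0.23 each).

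Lpl (chr8:68880491-68907448, plus strand) encodes the lipase that frees fatty acids from circulating lipoproteins. It read 178, 234 and 207 FPKM in chow-fed WT mice, 171, 198 and 229 in fat-fed WT mice, 307, 240 and 319 in chow-fed KO mice, and 225, 241 and 271 FPKM in fat-fed KO mice. Chow-fed KO mice did not overlap WT mice on that diet, and on high fat diet one WT mouse (229) exceeded one KO mouse (225). The log2 difference between genotypes was 0.48 on normal chow (SE 0.15, adjusted p = 0.277) and 0.31 on high fat diet (SE 0.15, adjusted p = 0.341). Averaged over diets it was 0.39 (SE 0.11, interval 0.16 to 0.63, limma adjusted p = 0.0727). The partners of LPL protein outside the cell were read as well. Angptl4, an inhibitor of LPL that also promotes fat release from adipocytes, averaged 11.4 ± 7.30 FPKM in WT and 27.8 ± 6.01 in KO mice (n = 6 each, log2 difference 1.46, SE 0.40, limma adjusted p = 0.0727). Gpihbp1, which carries LPL protein to the capillary wall, averaged 55.7 ± 10.5 in WT and 52.0 ± 2.16 FPKM in KO mice (n = 6 each, log2 difference -0.08, SE 0.10).

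The co-activator Abhd5 (chr9:122351608-122381524, plus strand) read 19.4, 19.1 and 19.4 FPKM in chow-fed WT mice, 24.2, 18.1 and 21.3 in fat-fed WT mice, 19.6, 19.6 and 21.3 in chow-fed KO mice, and 19.5, 16.9 and 20.5 FPKM in fat-fed KO mice. Chow-fed WT and KO mice did not overlap, and their means were 19.3 and 20.2 FPKM (log2 difference 0.06, SE 0.10). Averaged over diets the genotype difference was -0.04 on the log2 scale with a 95% interval of -0.21 to 0.12.

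G0s2 (chr1:193272161-193273217, minus strand), the inhibitor, read 72.4, 54.1 and 60.3 FPKM in chow-fed WT mice, 46.9, 65.3 and 82.5 in fat-fed WT mice, 61.1, 44.1 and 73.4 in chow-fed KO mice, and 36.7, 45.6 and 45.8 FPKM in fat-fed KO mice. Fat-fed KO mice had the lowest mean, 42.7 ± 5.22 FPKM, and each of them was below each WT mouse on that diet, which averaged 64.9 ± 17.8 FPKM (n = 3 each). That log2 difference was -0.56 (SE 0.22, interval -1.05 to -0.08, limma adjusted p = 0.238). On normal chow the genotypes overlapped, at 62.3 ± 9.31 FPKM in WT and 59.5 ± 14.7 in KO mice (n = 3 each, log2 difference -0.08, SE 0.22).

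Dgat1 (chr15:76502015-76511953, minus strand), the synthesis enzyme, was the one gene of the 9 that passed the adjusted threshold in any comparison. It read 10.2, 15.1 and 12.4 FPKM in chow-fed WT mice, 9.0, 9.85 and 12.7 in fat-fed WT mice, 27.4, 17.1 and 27.7 in chow-fed KO mice, and 14.3, 17.6 and 16.9 FPKM in fat-fed KO mice. KO mice stood above WT mice without overlap within each diet. Averaged over diets Dgat1 rose in KO mice, with 11.6 ± 2.28 FPKM in WT and 20.2 ± 5.83 in KO mice (SD, n = 6 in each genotype), and the log2 difference was 0.73 (SE 0.14, interval 0.43 to 1.03, limma adjusted p = 0.0455). In that comparison 103 of the 11945 genes were called, 0.862%. With any 1 library left out the log2 difference stayed between 0.67 and 0.84, and the adjusted p ran from 0.0197 to 0.126. It was under 0.05 in 3 of these 12 fits, those without chow-fed WT replicate 2, fat-fed WT replicate 3 or chow-fed KO replicate 2, so leaving out any of the other 9 libraries ended the call. Without the 3 lymphoid-rich libraries the log2 difference was 0.58 (adjusted p = 0.257), and without the 2 libraries lowest in adipocyte markers it was 0.62 (adjusted p = 0.190). On normal chow alone the log2 difference was 0.87 (SE 0.20, adjusted p = 0.259) and on high fat diet 0.60 (SE 0.20, adjusted p = 0.167). Dgat2, the other final-step enzyme, averaged 69.3 ± 35.2 FPKM in WT and 133 ± 28.3 in KO mice (n = 6 each, log2 difference 1.09, SE 0.36, limma adjusted p = 0.10).

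Plin3 (chr17:56277476-56292873, minus strand), a perilipin found in most cell types, read 22.1, 21.4 and 15.7 FPKM in chow-fed WT mice, 22.7, 17.6 and 19.9 in fat-fed WT mice, 16, 17 and 18.3 in chow-fed KO mice, and 14.5, 14.7 and 14.0 FPKM in fat-fed KO mice. It was lowest in fat-fed KO mice, which overlapped neither WT mice on that diet nor chow-fed KO mice, and whose SD was 0.350 FPKM around a mean of 14.4. The log2 difference between genotypes on high fat diet was -0.45 (SE 0.13, interval -0.73 to -0.17, limma adjusted p = 0.123), and averaged over diets -0.31 (SE 0.09, limma adjusted p = 0.0780). On normal chow it was -0.18 (SE 0.13).

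Plin4 (chr17:56100591-56109803, minus strand), an adipocyte and muscle perilipin, lies 167672 bases from Plin3. It read 39.6, 63.5 and 69.3 FPKM in chow-fed WT mice, 41.0, 64.9 and 76.4 in fat-fed WT mice, 97.0, 79.2 and 70.2 in chow-fed KO mice, and 83.1, 45.9 and 66.6 FPKM in fat-fed KO mice. Chow-fed KO mice were above WT mice on that diet without overlap (log2 difference 0.53, SE 0.28, limma adjusted p = 0.340), and on high fat diet the genotypes overlapped (0.10, SE 0.28). The chow difference ran from 0.29, without chow-fed WT replicate 1, to 0.69 when 1 library was left out.

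Counted together, 1 of the 9 genes passed an adjusted p of 0.05 for genotype averaged over diets and 0 passed in the other comparisons, where limma called 0.0586% of all genes tested for genotype on normal chow, 0.109% for genotype on high fat diet, 0.1% for diet in WT mice, 0% for diet in KO mice, 0.0586% for diet averaged over genotypes and 0% for the interaction. At an unadjusted p of 0.05, Pnpla2, Lipe, Mgll, Lpl and Dgat1 were higher in KO mice averaged over diets (5 of 9, against 13.1% of all genes tested) and Plin3 was lower (1 of 9, against 13.4%). On normal chow the same 5 were higher at that level, against 6.73% of all genes. On high fat diet 3 were higher (Lipe, Mgll and Dgat1, against 9.79%) and 2 lower (Plin3 and G0s2, against 6.45%). The median log2 difference between genotypes over the 9 genes was 0.53 on normal chow, 0.10 on high fat diet and 0.37 averaged over diets, beside -0.03, -0.01 and -0.02 over all genes tested. The chow and the high fat comparisons share no sample in their means, but both take their spread from 1 fit of all 12 libraries. On normal chow, without the 3 lymphoid-rich libraries, the differences were 0.50 for Pnpla2, 1.10 for Lipe, 0.40 for Mgll, 0.32 for Lpl and 0.56 for Dgat1, with 1 KO mouse left in that group. Over the fits that left out 1 library each, the number of the 9 genes called for genotype averaged over diets ran from 0 to 5, with 5 when chow-fed KO replicate 2 was left out, a fit that called 1200 of the 11945 genes tested, against 103 with all libraries.

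Read by overlap of the 3 mice in each group, 6 of the 9 genes were wholly higher in chow-fed KO mice, Pnpla2, Lipe, Abhd5, Lpl, Plin4 and Dgat1, where 8.15% of all genes tested were. On high fat diet 2 were wholly higher, Mgll and Dgat1 (13% of all genes), and 2 wholly lower, G0s2 and Plin3 (10.7%). Dgat1 was thus the one gene of the 9 wholly higher in both, and Abhd5 reached this count with the smallest difference.

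Diet was compared within each genotype. In WT mice 0 of the 9 genes had an unadjusted p under 0.05, against 8.12% of all genes, and the log2 differences ran from -0.32 (Lipe) to 0.13 (Pnpla2) with a median of 0.03. In KO mice Pnpla2 and Dgat1 were lower on high fat diet at that level (2 of 9, against 4.73%), Dgat1 by 0.51 on the log2 scale (-0.51, SE 0.20, adjusted p = 0.431). Pnpla2 and Plin3 were wholly lower (6.14% of all genes). The median over the 9 genes was -0.36, beside 0.03 over all genes tested. The values of Pnpla2 and Dgat1 rest on chow-fed KO replicates 1 and 3, which are also the libraries highest in the sums of adipocyte and lymphoid markers and lowest in Mylpf and Tnnt3. Without them and chow-fed WT replicate 2, which leaves 1 chow-fed KO mouse that is assumed to vary like the other groups, the diet difference in KO mice was -0.18 for Pnpla2 and -0.07 for Dgat1, while that of Plin3 was -0.23 with and without them. Averaged over genotypes, Dgat1 was lower on high fat diet (-0.37, SE 0.14, adjusted p = 0.299 in limma, 1 of 9 genes against 5.94% of all), and -0.09 without those 3 libraries. In the interaction, Pnpla2 was the 1 gene of the 9 with an unadjusted p under 0.05, against 2.7% of all genes in that direction. No result above shows that diet leaves these genes unaltered, since the 95% intervals in WT mice reached from -1.35 to 0.71 for Lipe and from -0.67 to 0.19 for Dgat1.

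**Figure D2:**
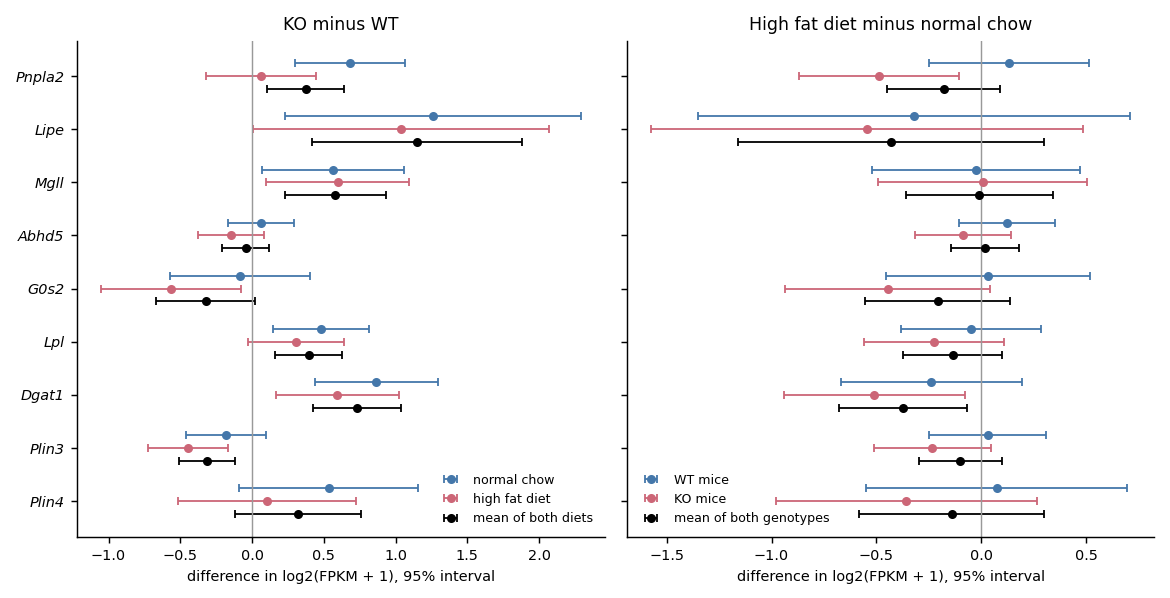
Differences in log2(FPKM + 1) with 95% intervals from limma (x axis) for the 9 genes (y axis), KO minus WT on the left and high fat diet minus normal chow on the right, by diet or genotype (colours) and averaged (black). The intervals of Lipe, Mgll and Dgat1 lie above 0 in each genotype comparison, those of Plin3 below 0 on high fat diet and averaged, and most diet intervals cross 0.

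Adipocyte markers varied with several of these genes from mouse to mouse. Over the 12 mice the Pearson correlation with the log2 sum of the 10 adipocyte markers, none of which is among the 9 genes, was 0.99 for Lipe (Spearman's rho 0.90), 0.96 for Lpl (0.96), 0.95 for Dgat1 (0.92) and 0.93 for Mgll (0.86). Permutation of the samples gave p = 1e-05 for the first 3, the smallest that 100000 permutations allow, and 3e-05 for Mgll, with Benjamini-Hochberg adjusted p of 0.00126 and 0.00164 over all genes tested. Plin4 (r = 0.72, rho 0.56, permutation p = 0.00826, adjusted p = 0.030) and Pnpla2 (r = 0.71, rho 0.66, permutation p = 0.00975, adjusted p = 0.0335) followed more loosely. Abhd5 (r = -0.11, rho 0.11, permutation p = 0.746, adjusted p = 0.817), G0s2 (r = -0.02, rho -0.09, permutation p = 0.943, adjusted p = 0.962) and Plin3 (r = -0.48, rho -0.43, permutation p = 0.114, adjusted p = 0.202) did not pass. These 6 of 9 positive relations stand beside 14.3% of all genes tested.

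The 4 closest relations were also seen within groups. After subtraction of group means r was 0.98 for Lipe, 0.98 for Mgll, 0.92 for Lpl and 0.89 for Dgat1, against 0.45 for Pnpla2 and 0.64 for Plin4, although no gene of the whole table passed the adjusted threshold with the 1296 exchanges that this leaves (for Lipe p = 0.00309 and adjusted p = 0.155 by exact permutation within groups). Without the 2 libraries farthest from the median, replicate 1 of both WT groups, r was 0.98 for Lipe, 0.93 for Lpl, 0.95 for Dgat1, 0.86 for Mgll and 0.92 for Pnpla2. For Plin4 it was 0.38 (permutation p = 0.271, n = 10), so that relation rests on those 2 mice. By Pearson's r the closest relations were looser with measures that leave out Fabp4. With Adipoq and Plin1 alone, r was 0.89 for Lipe, 0.83 for Lpl, 0.80 for Mgll, 0.78 for Dgat1, 0.74 for Plin4 and 0.32 for Pnpla2. With the secreted markers Adipoq, Lep, Retn and Cfd it was 0.88, 0.83, 0.74, 0.82, 0.71 and 0.41 in the same order. Spearman's rho, in that order, was 0.96, 0.89, 0.89, 0.84, 0.66 and 0.62 with Adipoq and Plin1. By rank, Lipe and Mgll were thus closer to these markers than to all 10, and Lpl and Dgat1 looser. With the secreted markers rho was 0.81, 0.78, 0.60, 0.80, 0.65 and 0.56.

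Fat-fed WT replicate 1 had the lowest levels of the genes most specific to adipocytes. There Adipoq was 1.40, Plin1 0.609, Cidec 0.802 and Cfd 2.77 FPKM, and 1 of the 10 markers, Acvr1c, was listed at 0, whereas Fabp4 was 584. That library held 196 FPKM of Pnpla2 and 171 of Lpl, the highest Abhd5 (24.2) and Plin3 (22.7) of the 12, and the lowest Lpl and Dgat1 (9.0). Lipe was still present at 16.9, Mgll at 36.9, Plin4 at 41.0 and G0s2 at 46.9 FPKM. In whole muscle, fewer cells of a type and less RNA per cell cannot be told apart, and the part of adipocyte RNA in the genotype differences was not tested.

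**Figure D3:**
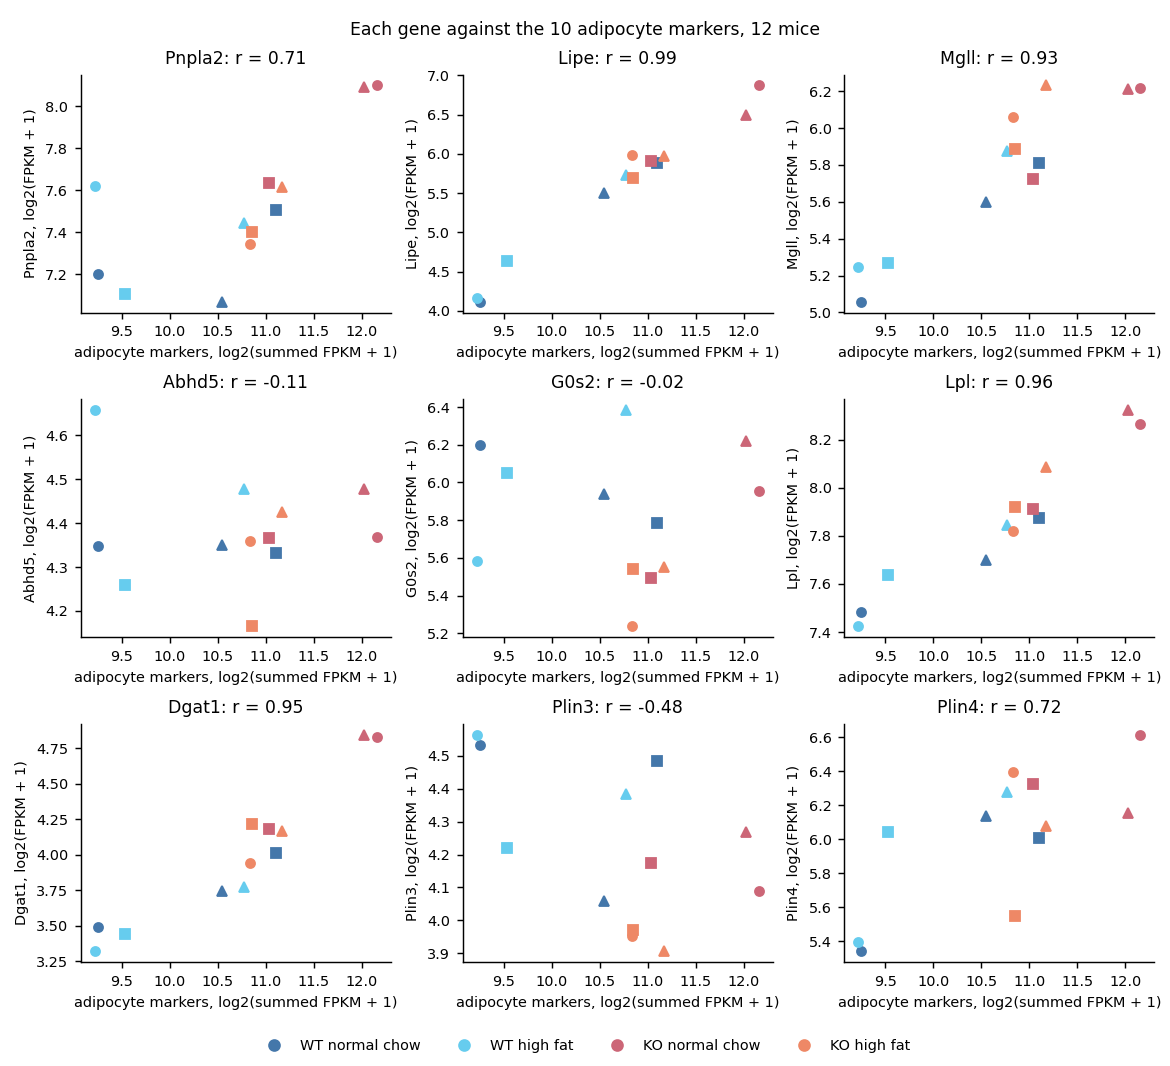
Each of the 9 genes (y axis, log2(FPKM + 1)) against the 10 summed adipocyte markers (x axis, log2(summed FPKM + 1)) in 12 mice, coloured by group, with Pearson's r above each panel. Lipe, Lpl, Dgat1 and Mgll climb along the axis (r from 0.93 to 0.99), Abhd5 and G0s2 scatter (r = -0.11 and -0.02), and Plin3 leans the other way (r = -0.48).

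The gene whose pattern over the 12 mice was closest to each of the 9 differed from one to the next. It was Ptplb for Lipe (r = 0.99), Niacr1 for Lpl (0.99), Nadk for Dgat1 (0.98), the adipocyte marker Fabp4 for Mgll (0.96), Spnb2 for Plin4 (0.96), Snx11 for Plin3 (0.93), D8Ertd82e for Pnpla2 (0.91), Icam2 for G0s2 (0.87) and Nip7 for Abhd5 (0.87). Many genes followed Lipe, Dgat1, Lpl and Mgll at r above 0.9, namely 187, 161, 133 and 80, against 11 for Plin4, 3 each for Pnpla2 and Plin3 and 0 for Abhd5 and G0s2. All of these share the 12 libraries and their cell make-up, and the correlations are descriptions.

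The remaining perilipins coat the droplets of different cells. Plin1, the perilipin of large adipocyte droplets and part of the adipocyte list, averaged 23.7 ± 19.8 FPKM in WT and 63.4 ± 27.6 in KO mice (n = 6 each, log2 difference 2.02, SE 0.70, limma adjusted p = 0.114). Plin2, present on droplets of most cells, read 23.9, 26.3 and 40.1 FPKM in fat-fed WT and 47.5, 63.6 and 61.7 in fat-fed KO mice, with no overlap (log2 difference 0.94, SE 0.24, limma adjusted p = 0.105). Plin5, the perilipin of oxidative muscle, was wholly higher on high fat diet in WT mice, 7.66, 10.3 and 5.8 FPKM against 26.7, 22.1 and 18.6 (log2 difference 1.41, SE 0.26, limma adjusted p = 0.0885, from 0.0425 to 0.246 with 1 library left out and under 0.05 only without chow-fed KO replicate 3). In KO mice Plin5 read 11.4, 8.87 and 17.9 FPKM with chow, and with the high fat diet 8.99, 10.7 and 14.2 (log2 difference -0.13, SE 0.26). The difference between these diet effects was -1.54 (SE 0.36, limma adjusted p = 0.465).

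**Figure D4:**
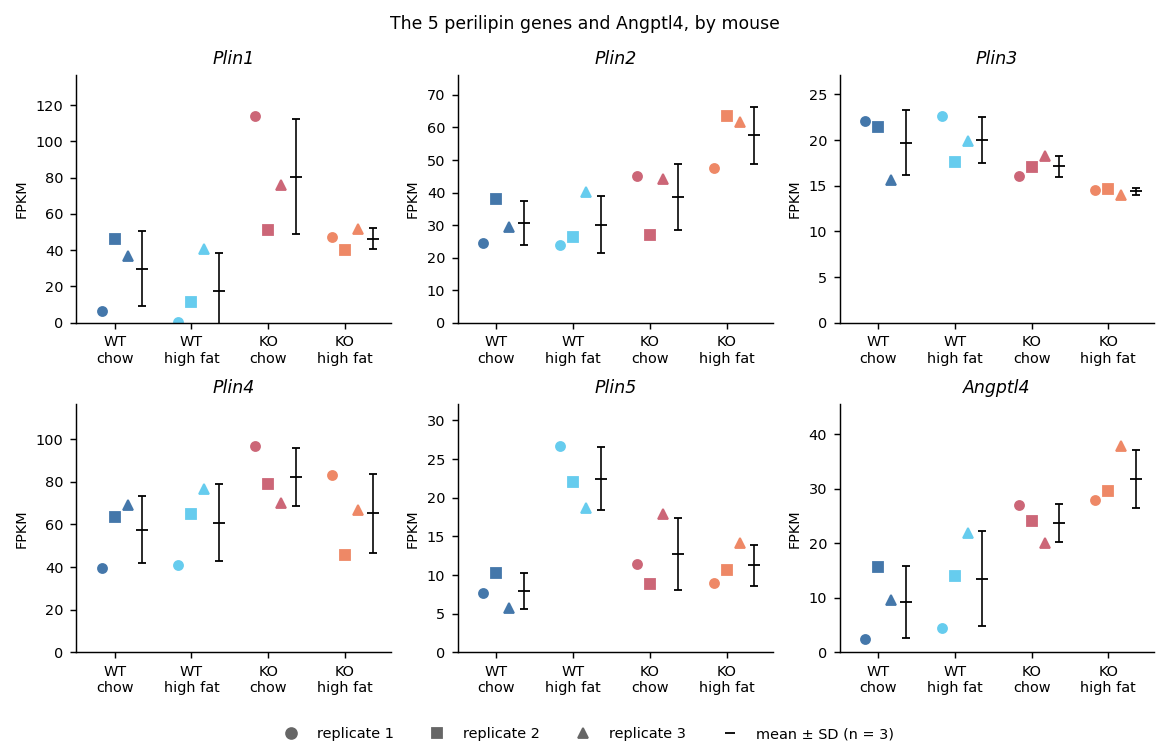
FPKM (y axis, from 0) of the 5 perilipin genes and Angptl4 in each of the 12 mice, by group (x axis), with mean ± SD of 3 mice. Plin5 is high in fat-fed WT mice (18.6 to 26.7 FPKM), Plin2 in fat-fed KO mice (47.5 to 63.6), and Plin3 is lowest there (14.0 to 14.7).

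Of 42 further genes of triglyceride handling, 41 were listed and 36 passed the filter, 3 of them shared with the adipocyte list. None of the 36 had an adjusted p under 0.05 in limma in the 7 comparisons. At an unadjusted p of 0.05, 19 were higher and 2 lower in KO mice averaged over diets, beside 13.1% and 13.4% of all genes tested. On normal chow 15 were higher and 1 lower (6.73% and 9.93% of all genes), and on high fat diet 10 were higher and 2 lower (9.79% and 6.45%). For diet, 4 were higher and 1 lower in WT mice (4.42% and 3.7%), and 4 higher and 5 lower in KO mice (6.56% and 4.73%). Averaged over diets the smallest p-values between genotypes belonged to Bscl2, the seipin gene of droplet formation (14.9 ± 3.03 FPKM in WT and 22.9 ± 3.04 in KO mice, n = 6 each, limma adjusted p = 0.0508), and Lpin3, a phosphatidate phosphatase (1.49 ± 0.167 and 2.14 ± 0.274 FPKM, n = 6 each, limma adjusted p = 0.0563). In WT mice the smallest for diet belonged to Fabp3, the fatty acid carrier of muscle, at 428 ± 101 FPKM with chow and 1550 ± 303 with the high fat diet (n = 3 each, log2 difference 1.87, SE 0.33, limma adjusted p = 0.0802, from 0.0159 to 0.246 with 1 library left out and under 0.05 only without chow-fed KO replicate 3). The same diet difference in KO mice was 0.75 (adjusted p = 0.441). In KO mice Mogat1, a monoacylglycerol acyltransferase, was lower on high fat diet (log2 difference -1.15, limma adjusted p = 0.266). The carboxylesterase gene Ces1d (-1.25, adjusted p = 0.343) and the droplet gene Cidea (-3.26, adjusted p = 0.360), which is also on the brown adipocyte list, were lower as well, and Cidea read 49.8 and 45.4 FPKM in the 2 lymphoid-rich KO libraries against 12.5 in the third.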

How the data were processed

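RNA from the proximal hind limb muscle of 12 mice was sequenced, 1 library per mouse. The authors deposited 1 table of FPKM values per library, with replicates not pooled. Their processing notes name TopHat2 2.0.8b, Cuffdiff 2.1.1 and the build mm10, and the annotation is not given in the sources used here. FPKM was read from the values and the tool. Samples were grouped by title, since the genotype label of 6 conflicts with it, and the highest row was kept for each repeated symbol (158 symbols).

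Genes with at least 1 FPKM in at least 3 samples (11945) were compared as log2(FPKM + 1) in limma 3.58.1 (R 4.3.3) with 4 group means, 8 residual degrees of freedom and a trended prior, two-sided, adjusted by Benjamini-Hochberg over all genes at a threshold of 0.05. The pseudocount of 1 makes differences of low genes smaller. The procedure was first run on simulated data with errors drawn independently for each gene. Those data lack the shared cell make-up of these libraries, so they do not test its effect on the calls.

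Correlations with adipocyte markers used 100000 two-sided permutations (Python 3.11.15, NumPy 2.4.6) and were adjusted over all genes tested. The 9 genes and all lists were chosen with earlier results of these data known. Named in the text are the 9 genes, the deleted genes, adipocyte markers, a fixed set of relatives (the remaining perilipins, Angptl4, Gpihbp1 and Dgat2), up to 3 pathway genes of smallest p per comparison and the gene most correlated with each of the 9. Read totals behind the FPKM values are unknown, so no counting intervals are given. Gene positions come from GENCODE M21 and promoters from RefSeq.

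Alternatives tried were a pseudocount of 0.1, no filter, a filter on all samples, median-of-ratios or quantile scaling, 2 groups fitted alone, a replicate block, and leaving out each library. Chosen after seeing the data were leaving out 3 lymphoid-rich or 2 adipocyte-poor libraries, and Adipoq with Plin1 as the adipocyte measure.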

Additional observations from a re-analysis of the deposited data

How the results depend on the processing

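The count of 1 of the 9 genes called for genotype averaged over diets (Dgat1) became 0 with no filter on low values (adjusted p = 0.0789, limma), 0 with a replicate block (adjusted p = 0.0749), 0 without the 3 lymphoid-rich libraries and 0 without the 2 adipocyte-poor ones. It ran from 0 to 5 over fits that left out 1 library each, with 5 without KO replicate 2 on normal chow (Pnpla2, Lipe, Mgll, Lpl and Dgat1) and 3 without WT replicate 3 on high fat diet (Lipe, Mgll and Dgat1). All genes called in that comparison numbered 103, against 42 with no filter, 40 with the block, 200 with quantile scaling, and 10 to 1200 when 1 library was left out, with 1200 and 491 in the fits that called 5 and 3 of the 9. In the other 6 comparisons the count stayed at 0 under each alternative run. The 6 genes related to adipocyte markers became 5 with the secreted markers, 5 without the 2 farthest libraries, 5 with Adipoq and Plin1, and 0 as deviations from group means, where 0 of the 11945 genes passed. The replicate numbers were not taken to pair the mice. Correlations of same-numbered deviations ran from -0.81 to 0.39, which cannot show whether same-numbered mice were littermates or handled together. Among the 9 genes the block changed no other call. Over all genes it took the calls from 12 to 7 for diet in WT mice, 7 to 4 for genotype on normal chow, 13 to 5 on high fat diet and 7 to 1 for diet averaged.

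Some differences that were not called changed sign. With quantile scaling G0s2 between genotypes on normal chow was 0.0424 and Mgll between diets in KO mice -0.14, or -0.0041 with size factors. Without the lymphoid-rich libraries the diet difference was 0.0384 for Lipe and 0.12 for Plin2 in WT mice, and 0.0315 for Lpl and 0.29 for Plin5 in KO mice. Without the adipocyte-poor libraries it was -0.0111 for Pnpla2 in WT mice, and the genotype difference was 0.0281 for G0s2 on normal chow, -0.15 for Plin4 on high fat diet and 0.0055 for Abhd5 averaged. Leaving out 1 library gave, for diet in WT mice, -0.85 to 0.0384 for Lipe, -0.12 to 0.12 for Plin3 and -0.26 to 0.12 for Plin2, and in KO mice -0.16 to 0.0935 for Mgll and -0.34 to 0.13 for Plin5. For genotype it gave -0.25 to 0.11 for G0s2 on normal chow, -0.15 to 0.33 for Plin4 and -0.0785 to 0.18 for Pnpla2 on high fat diet, and -0.10 to 0.0044 for Abhd5 averaged. The correlation of G0s2 with adipocyte markers became 0.13 with the secreted markers, 0.37 as deviations, 0.0503 without the 2 farthest libraries and 0.0527 with Adipoq and Plin1, and that of Abhd5 became 0.0134 as deviations and 0.46 without those libraries. Causes were not tested.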
